A study of Mus musculus with 2 samples.

Results

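The genes that load and empty the calcium store of the cardiac muscle cell were followed in RNA of the newborn mouse heart. They are Atp2a2, Pln, Sln, Casq2, Casq1, Hrc, Ryr2, Trdn, Asph and Jph2, 10 of the 43346 mouse genes in the tables. They were chosen by name for their place in the store, through their gene identifiers in mouse GENCODE, with earlier results of these data known. The 2 libraries came from 13 pg of heart RNA of 1 B6NCrl pup each, an amount that the labels equate with 1 cell. Replicate 1 was pup 1 and replicate 2 was pup 3, both at postnatal day 0, and the labels name no treatment or engineered allele and leave sex unrecorded. RNA longer than 200 nt was amplified by a Smart-seq protocol with spike-in RNA added. The libraries form 1 group, so no test between conditions exists, and a difference between them joins the pup, the RNA aliquot and the amplification. Both carry 1 donor identifier in the labels, and what that identifier stands for was not given.

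The sarcoplasmic reticulum is the calcium store of muscle. At each heartbeat calcium entering through the cell membrane opens ryanodine receptors, which empty the store onto the myofilaments, and the SERCA pump then returns the calcium. Small membrane peptides, phospholamban and sarcolipin, slow the pump, and phosphorylation of phospholamban relieves that brake. Inside the store calsequestrin and the histidine-rich calcium binding protein hold calcium at high capacity, triadin and junctin tie calsequestrin to the release channel, and junctophilin holds the store against the cell membrane. The atria and ventricles of the mouse heart are known to use these genes in different proportions, with sarcolipin an atrial gene.

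The inhibitors, phospholamban and sarcolipin, are both very short proteins. Their coding sequences are shown because the ratios of inhibitor to pump turn on these genes. They were read from the GENCODE M21 transcripts on GRCm38 (mm10), 5′ to 3′ on the coding strand. For Pln (chr10:53343864-53344022, plus strand, 52 codons) capitals mark codons 16 and 17, the serine and threonine that protein kinase A and CaMKII phosphorylate. For Sln (chr9:53853473-53853568, plus strand, 31 codons) capitals mark codons 27 to 31, the tail that lies in the lumen.

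Pln-201: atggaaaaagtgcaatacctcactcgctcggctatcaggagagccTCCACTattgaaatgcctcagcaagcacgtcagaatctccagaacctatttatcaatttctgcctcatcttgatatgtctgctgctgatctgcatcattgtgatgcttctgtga
Sln-201: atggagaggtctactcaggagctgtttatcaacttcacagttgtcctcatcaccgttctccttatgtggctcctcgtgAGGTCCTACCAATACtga

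Levels are TPM, the authors' transcripts per 1000000, rescaled here over mouse genes and so divided by transcript length. Expected counts, the authors' estimated reads per gene, are not divided by length. Replicate 1 held 39671930 expected counts on mouse genes and replicate 2 held 32751851. Paired values given below without a label are those of replicates 1 and 2 in that order. The 10 genes took 270833 and 266325 of these counts, or 0.683% and 0.813%. Every one of the 10 had a whole expected count in both libraries, and 9 had a deposited posterior SD of the count of 0, Asph being the exception with 0.41 and 0.39 counts. Their reads were therefore hardly shared with other genes in the authors' estimate. Annotated genes overlap 7 of the 10, and no rule for strand in counting was given, but of the 21 overlapping genes 5 were in the tables and 1 had any count, Cep85l, on the strand opposite Pln, with 6 counts in replicate 1 and none in replicate 2. The cardiomyocyte markers Myh6, Tnnt2, Actc1, Tnni3 and Ttn were read in both libraries, so the labelled tissue shows its defining markers. Markers of fibroblasts (5 of 5), smooth muscle (4 of 4), endothelium (4 of 4) and blood (3 of 4, with Ptprc at 0) were read too, so these are libraries of mixed tissue, in which fewer cells of a type and less RNA per cell cannot be told apart.

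All 10 genes were read in both libraries, taking 1 TPM as the lowest level called read, and 15.3% of all mouse genes were. The pump Atp2a2 (chromosome 5, 122453513 to 122502225, minus strand), which encodes SERCA2, had 315 TPM in replicate 1 and 457 in replicate 2, with a mean of 386 ± 101 TPM (SD, n = 2). It ranked at place 451 and at place 303 among mouse genes. Pln (chromosome 10, 53337667 to 53345987, plus strand), which encodes phospholamban, had 1538 TPM and 1972 TPM, a mean of 1755 ± 306 TPM. It stood at place 93 and place 80 and was the highest of the 10 genes in either library. The pump and its main inhibitor were both somewhat lower in replicate 1, by less than 2-fold.

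Sln, the sarcolipin gene (chromosome 9, 53850164 to 53854560, plus strand), had 839 TPM in replicate 1 and 219 in replicate 2, from 11268 and 2499 expected counts. Its mean was 529 ± 438 TPM. The libraries lay 3.83-fold apart in TPM and 3.72-fold apart in counts per 1000000 (CPM), the widest gap among the 10 genes. The deposited intervals of the posterior TPM, which run from 778 to 807 in replicate 1 and from 202 to 219 in replicate 2, do not overlap. They are on the deposited scale over all features, where the posterior TPM was 792 and 210, and were not rescaled over mouse genes. Those intervals cover the estimation in each library and not the variation between hearts or amplifications. The authors' model of Sln is 515 nt long, with an effective length of 416 nt, where the later annotation gives 1318 nt, so the TPM of this gene depends on which model is right.

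**Figure D1:**
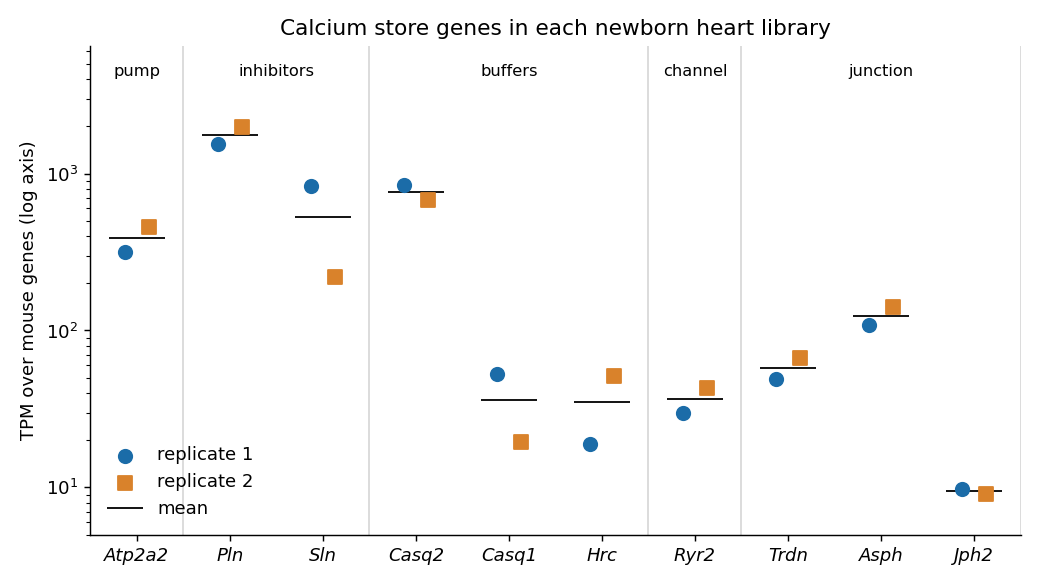
TPM over mouse genes (log axis) of each of the 10 genes, grouped by role, with a point for each library and a bar at the mean of the 2 libraries. Pln stood highest in both libraries, Sln, Casq1 and Hrc show the widest gaps between the points, and Jph2 is lowest at 9.77 and 9.07 TPM.

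Sln is itself on the list of atrial markers, and the other chamber markers differed between the same libraries. The 5 atrial markers other than Sln summed to 12127 TPM in replicate 1 and 8090 in replicate 2. The 5 ventricular markers summed to 12844 TPM in replicate 1 and 28402 in replicate 2. Myl7, the atrial myosin regulatory light chain, had 4639 and 2239 TPM, while Myl2, its ventricular counterpart, had 5082 and 15945 TPM. Neither list differed in 1 direction as a whole. Among the atrial genes Nppa (6346 and 4806 TPM) and Myl4 (1104 and 987 TPM) lay on the same side as Sln, while Bmp10 (10.6 and 19.9 TPM) and Stk39 (27.4 and 39.2 TPM) lay on the other. Among the ventricular genes Myl3 (6673 and 10682 TPM), Myh7 (1055 and 1757 TPM) and Irx4 (0 and 1.45 TPM) were higher in replicate 2, and Hey2 (34.3 and 16.3 TPM) was higher in replicate 1. No defining marker of either chamber was at 0 in both libraries. The part of chamber makeup in the gap of Sln was not tested.

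**Figure D2:**
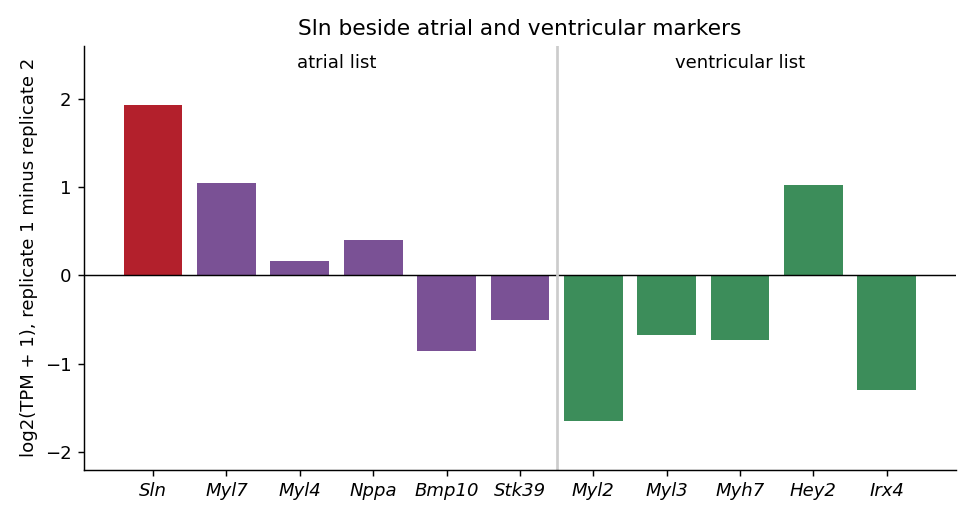
Difference in log2(TPM + 1), replicate 1 minus replicate 2, for Sln (red), the 5 other atrial markers (purple) and the 5 ventricular markers (green), 1 bar a gene from 0. Sln, at 1.93, and Myl7 stand above 0 and Myl2 well below it, while Bmp10, Stk39 and Hey2 run against the rest of their lists.

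Inhibitor was set against pump within each library, where the size of the library cancels. A ratio is described as apart from 1 where its log2 value had the same sign in each library and a mean of more than 2 SD in size. Pln stood 4.88-fold above Atp2a2 in replicate 1 and 4.31-fold in replicate 2 in TPM, a mean log2 ratio of 2.20 ± 0.13 (SD, n = 2). In expected counts, with no division by length, Pln still stood above the pump, 2.62-fold and 2.30-fold. The phospholamban to pump ratio was thus apart from 1 in either unit and nearly the same in the hearts of both pups.

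Sarcolipin gave no such stable ratio. Sln stood 2.66-fold above Atp2a2 in replicate 1 and at 0.479 of it in replicate 2 in TPM, a mean log2 ratio of 0.18 ± 1.75, with opposite signs. These TPM ratios use the authors' 515 nt model of Sln. With the same counts, the later model of 1318 nt would lower them. The side of the pump on which Sln falls in replicate 1 was thus not settled. In expected counts Sln lay below the pump in both libraries, at 0.263 and 0.0472 of it, and the mean log2 ratio of -3.17 ± 1.75 did not exceed 2 SD. Pln stood above Sln in both libraries, 1.83-fold and 8.99-fold in TPM, but that mean of 2.02 ± 1.62 on the log2 scale did not exceed 2 SD either. In expected counts it did, at 4.46 ± 1.62. The order of the inhibitors was thus the same in both libraries, and its size was not fixed by these data.

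Taken as a sum, Pln and Sln had 7.55 TPM for each TPM of Atp2a2 in replicate 1 and 4.79 in replicate 2, a mean of 6.17 ± 1.95. Sln supplied 35.3% of that sum in replicate 1 and 10.01% in replicate 2, again with the authors' shorter model of Sln. In expected counts its share was 9.13% and 2.01%. Most inhibitor RNA was phospholamban in either library and either unit.

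**Figure D3:**
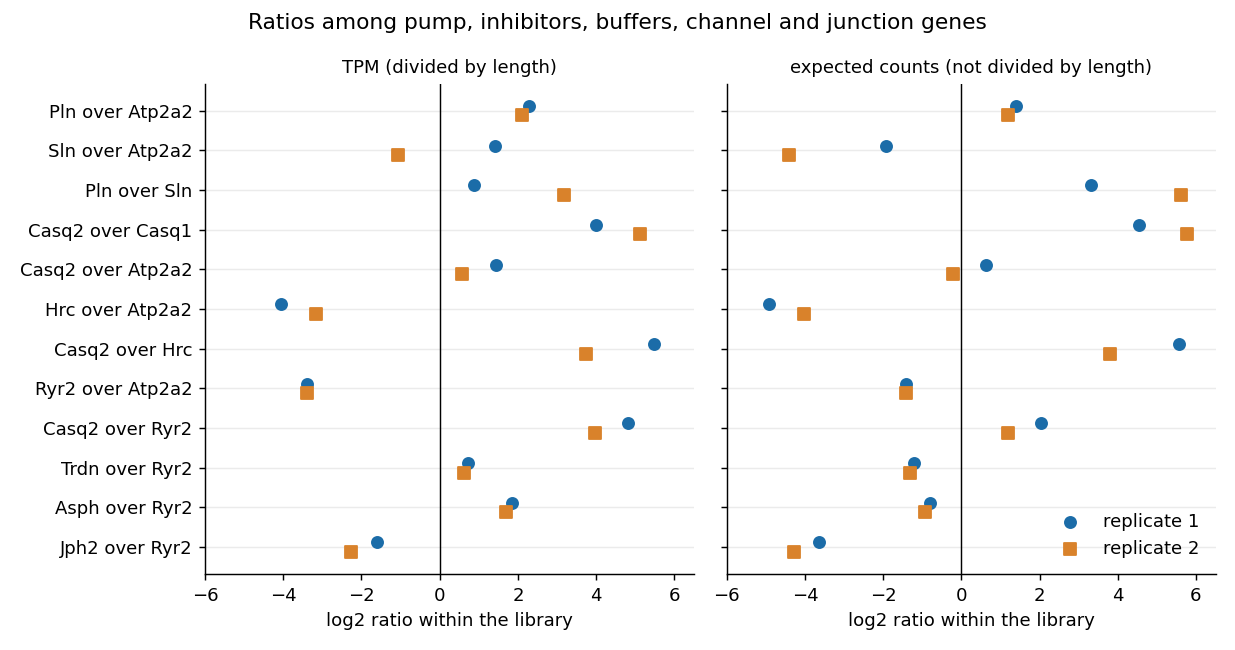
The 12 ratios within each library as log2 values, in TPM (left) and in expected counts not divided by length (right), with a circle for replicate 1, a square for replicate 2 and a line at equality. Ryr2 over Atp2a2 falls on the same value in both libraries. Sln over Atp2a2, with the authors' shorter model of Sln, falls on opposite sides of the line in TPM. Trdn over Ryr2 and Asph over Ryr2 change side between the units.

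The pump gene makes several proteins by its last exons. SERCA2a, the form of the heart and slow muscle, ends early, while SERCA2b, the form found in most cells, runs on into a further membrane-spanning stretch. The ends of the coding sequence are shown because they tell the forms apart. They start with the same 24 bases, in lower case, and capitals mark the bases that belong to each form, the stop codon included. Atp2a2-202, with 998 codons, carries the SERCA2a end (chr5:122454291-122457326, minus strand, over an intron), and Atp2a2-201, with 1044 codons, carries the SERCA2b end (chr5:122457151-122457326, minus strand), both from GENCODE M21 on mm10.

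Atp2a2-202: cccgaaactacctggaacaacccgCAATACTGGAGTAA
Atp2a2-201: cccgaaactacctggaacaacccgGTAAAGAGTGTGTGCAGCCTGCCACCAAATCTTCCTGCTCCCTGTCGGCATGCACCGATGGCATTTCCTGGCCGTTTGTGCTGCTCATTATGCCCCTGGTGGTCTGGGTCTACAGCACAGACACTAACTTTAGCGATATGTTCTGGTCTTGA

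Nearly all of the pump RNA was assigned to the SERCA2a form. Atp2a2-202 held 99.6% of the gene's TPM in replicate 1 and 95.7% in replicate 2, a mean of 97.6 ± 2.79% (SD, n = 2). Atp2a2-201 held 0.38% and 4.31%, from 170.3 and 2373 expected counts. The SERCA2b share was the small one in both libraries and was larger in replicate 2.

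The luminal buffers differed widely in level. Casq2, the cardiac calsequestrin gene (chromosome 3, 102086415 to 102146514, plus strand), had 848 TPM in replicate 1 and 680 in replicate 2, a mean of 764 ± 119 TPM. Casq1, the calsequestrin of fast skeletal muscle (chromosome 1, 172209894 to 172219868, minus strand), had 53.0 and 19.4 TPM. Hrc, the histidine-rich calcium binding protein gene (chromosome 7, 45335290 to 45338974, plus strand), had 18.9 and 51.2 TPM. Casq2 was thus the main buffer transcript in both libraries, and the minor buffers differed between libraries in opposite directions.

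Casq2 exceeded Casq1 16.0-fold in replicate 1 and 35.1-fold in replicate 2 in TPM, a mean log2 ratio of 4.57 ± 0.80, and 23.4-fold and 54.6-fold in expected counts. It exceeded Hrc 44.8-fold and 13.3-fold in TPM, a mean of 4.61 ± 1.24 on the log2 scale. Both ratios were apart from 1 in TPM and in counts. Casq1 made up 5.88% and 2.77% of calsequestrin TPM, and Hrc made up 2.06% and 6.83% of the TPM of the 3 buffers. Casq2 against the pump was less settled. It stood 2.69-fold and 1.49-fold above Atp2a2 in TPM, a mean log2 ratio of 1.00 ± 0.61 that did not exceed 2 SD, and lay above the pump in replicate 1 and below it in replicate 2 in expected counts, at 1.55 and 0.862 of it. The 3 buffers together had 2.92 TPM per TPM of Atp2a2 in replicate 1 and 1.64 in replicate 2.

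Casq1 was 2.74-fold higher in replicate 1, from 2841 and 836 expected counts. Of 8 skeletal muscle markers, 5 were at 0 in both libraries, namely Myh3, Myh8, Actn3, Tnnt3 and Tnnc2. Mylpf, the fast skeletal myosin regulatory light chain, had 22.1 TPM in replicate 1 and 0 in replicate 2. Acta1 (171 and 102 TPM) and Ckm (4488 and 3996 TPM) are also genes of heart muscle, and the 8 markers summed to 4682 and 4098 TPM. The part of skeletal muscle RNA in the gap of Casq1 was not tested. Within the gene, the coding model Casq1-201 held 89.8% and 80.0% of TPM and Casq1-202, a model with a retained intron, held 10.2% and 20.0%. The share that does not encode calsequestrin was larger in replicate 2, where the gene was lower.

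Hrc lay the other way. It was 2.71-fold higher in replicate 2 in TPM and 2.78-fold in CPM, with 1413 and 3243 expected counts in replicates 1 and 2. Hrc lay below the pump in both libraries, with Atp2a2 16.6-fold and 8.93-fold above it. That ratio was apart from 1 in either unit, and Hrc has a single transcript model.

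Ryr2, the release channel of heart muscle (chromosome 13, 11553102 to 12106945, minus strand), had 29.8 TPM in replicate 1 and 43.3 in replicate 2, a mean of 36.6 ± 9.51 TPM (SD, n = 2). It drew 16108 and 19825 expected counts, more than Sln in both libraries, over a transcript of 16813 nt. Atp2a2 exceeded Ryr2 10.6-fold in each library in TPM, a mean log2 ratio of Ryr2 over Atp2a2 of -3.40 ± 0.0016, the smallest spread of the 12 ratios. In expected counts the channel was again the lower one, with a mean log2 ratio of -1.41 ± 0.0032. Channel and pump were thus in the same proportion in both hearts, while each was about 1.45-fold higher in TPM in replicate 2. With 2 libraries, how often a ratio would come this close was not tested. The 2 annotated models of Ryr2 have the same coding length, and the deposited estimate split the reads evenly between them, while by the deposited posterior means Ryr2-202 held 61.8% and 53.8%.

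Among the genes that build the release site, Trdn, the triadin gene (chromosome 10, 33080554 to 33476709, plus strand), had 49.1 TPM in replicate 1 and 66.3 in replicate 2. Asph (chromosome 4, 9448069 to 9669344, minus strand), which encodes junctin and junctate as well as an aspartyl hydroxylase, had 108 and 140.2 TPM. Jph2, the cardiac junctophilin (chromosome 2, 163336242 to 163397993, minus strand), had 9.77 and 9.07 TPM, from 1298 and 1020 expected counts. Trdn and Asph lay a little higher in replicate 2, as Ryr2 did, and Jph2 was nearly level.

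Set against the channel, Trdn stood 1.64-fold and 1.53-fold above Ryr2 in TPM, a mean log2 ratio of 0.67 ± 0.07, and Asph stood 3.63-fold and 3.24-fold above it, a mean of 1.78 ± 0.12. Ryr2 exceeded Jph2 3.05-fold and 4.77-fold, a mean log2 ratio of Jph2 over Ryr2 of -1.93 ± 0.46. Casq2 exceeded Ryr2 28.4-fold and 15.7-fold, a mean log2 ratio of 4.40 ± 0.60. All 4 ratios were apart from 1 in TPM. In expected counts, which favour long transcripts by construction, the mean log2 ratios of Trdn and Asph over Ryr2 had the other sign, -1.25 ± 0.07 and -0.87 ± 0.09. The channel thus drew more reads than either gene but had fewer reads for its length.

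The Asph locus is listed with 20 transcript models. The 3 models that hold the last coding exon of the longest one, and so the hydroxylase end, have 658 to 741 codons and held 6.46% of the gene's TPM in replicate 1 and 6.59% in replicate 2. The 12 coding models without that exon held 82.05% and 91.51%, and the 5 models without a coding sequence held 11.5% and 1.89%. In expected counts the long models held 16.2% and 16.0%. RNA of this gene was therefore mostly assigned to models without the hydroxylase end, the class that holds junctin and junctate. The hydroxylase share was nearly the same in both hearts, but the model behind it was not. The share was assigned to Asph-202 in replicate 1 (6.46% and 0%) and to Asph-212 in replicate 2 (0% and 6.59%). Some of the 12 models have an incomplete coding sequence, such as Asph-203 (0.97% and 6.64%) and Asph-215 (6.13% and 0%). The form to which these belong is not known.

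The leading model of Asph was Asph-208, with 272 codons, at 67.1% in replicate 1 and 52.3% in replicate 2. Asph-207, with 261 codons, was at 0% in replicate 1 and 21.3% in replicate 2. These single models thus differed between libraries more than the share with the hydroxylase end did. In Jph2 the leading model Jph2-201 held 99.97% and 87.4% of TPM, but the other model codes for the same number of codons, 696, and by the deposited posterior means the leading shares were 87.7% and 71.8%. The remaining genes with several models had a clear leader, Pln-201 with 96.2% and 96.8% and Casq2-201 with 98.6% and 99.3%. Of the 6 genes with several models other than Ryr2, 6 had the same leading model in both libraries.

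**Figure D4:**
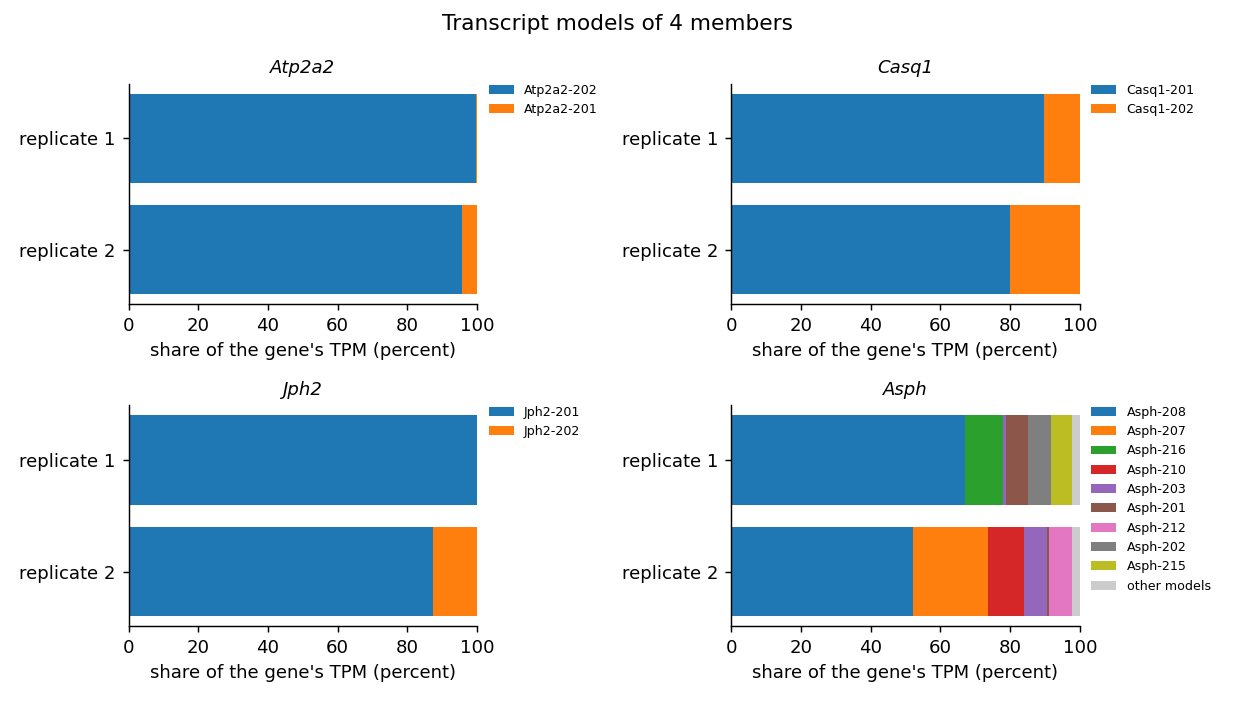
Share of the gene's TPM in percent held by each transcript model of Atp2a2, Casq1, Jph2 and Asph, with a stacked bar for each library. The SERCA2a model Atp2a2-202 fills nearly the whole bar in both libraries, while below Asph-208 the minor models of Asph differ between replicate 1 and replicate 2.

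In order of mean TPM the 10 genes ran Pln, Casq2, Sln, Atp2a2, Asph, Trdn, Ryr2, Casq1, Hrc and Jph2. The place of Sln rests on the authors' shorter model of that gene. Of the 9 pairs of neighbours in that order, 4 were apart by the same rule as the ratios. These were Pln over Casq2 (log2 ratio 1.20 ± 0.48), Atp2a2 over Asph (1.62 ± 0.12), Asph over Trdn (1.11 ± 0.04) and Trdn over Ryr2 (0.67 ± 0.07). Casq2 and Sln, Sln and Atp2a2, Ryr2 and Casq1, Casq1 and Hrc, and Hrc and Jph2 did not differ beyond their spread. The unsettled pairs of neighbours all involve Sln, Casq1 or Hrc. Casq2 and Atp2a2, which have Sln between them, were not apart by the rule either (log2 ratio 1.00 ± 0.61).

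Between the libraries, 3 of the 10 genes lay over 2-fold apart on the log2(TPM + 1) scale, where 54.6% of the 8266 mouse genes averaging at least 5 TPM did. Sln and Casq1 were higher in replicate 1, 2 of 10 against 26.9% of all these genes. Hrc was higher in replicate 2, 1 of 10 against 27.7%. The median difference, replicate 1 minus replicate 2, was -0.36 for the 10 genes and -0.01 for all genes tested. A gene at 0 TPM in 1 library that averages at least 5 TPM lies over 2-fold apart by construction, and the shares over all genes include such genes. At this input the libraries differ widely for weakly expressed genes, so the level bears on this reading. Of genes with means from 300 to 1000 TPM, the range of Sln, Casq2 and Atp2a2, 14.1% lay over 2-fold apart, and of those from 30 to 100 TPM, the range of Casq1, Hrc, Ryr2 and Trdn, 42.6% did. Sln was thus among the smaller share that differed at its level, while gaps like those of Casq1 and Hrc were common at theirs. That level of Sln rests on the authors' shorter model, and the longer later model would lower it. Of genes with means from 100 to 300 TPM, 24.3% lay over 2-fold apart.

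**Figure D5:**
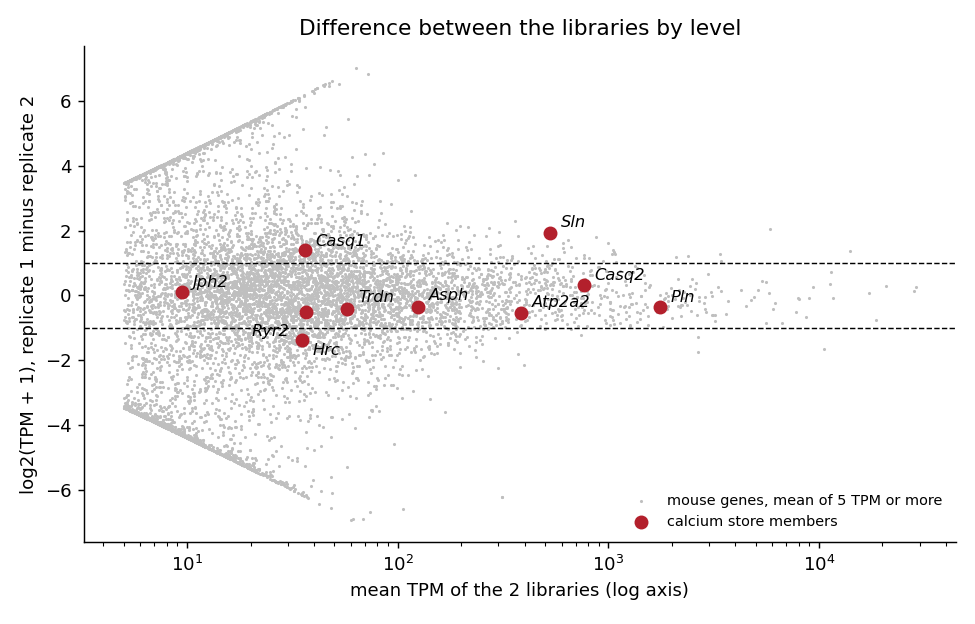
Difference in log2(TPM + 1), replicate 1 minus replicate 2, against the mean TPM of the 2 libraries (log axis), for the 8266 mouse genes averaging at least 5 TPM (grey) and the 10 calcium store genes (red), with dashed lines at a 2-fold difference. The cloud narrows as the mean rises, Sln lies near its upper edge at 1.93, Casq1 and Hrc lie outside the lines at means where many genes do, and the other 7 genes lie between them.

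Close relatives of the 10 genes were scarce. Atp2a1, the SERCA of fast skeletal muscle, had no count in either library, and Atp2a3 had 10.4 and 19.1 TPM, so Atp2a2 held 96.8% and 96.0% of SERCA TPM. Ryr1, the channel of skeletal muscle, had no count, and Ryr3 had 9 counts in replicate 1 and none in replicate 2, which left 99.9% and 100% of ryanodine receptor TPM to Ryr2. Jph1 had 0 and 0.68 TPM, and Jph2 held 99.9% and 92.9% of junctophilin TPM. A gene without a count may still have had up to 3, which is 0.0756 CPM in replicate 1 and 0.0916 CPM in replicate 2, for counting error only.

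Among the other peptides that act on SERCA pumps, Arln, which encodes another-regulin and is listed under an older symbol, had 84.7 and 91.0 TPM. Mrln (myoregulin), Strit1 (DWORF, which in mouse activates the pump) and Erln (endoregulin) had no count in either library, and the models of Strit1 and Mrln, at 243 and 385 nt, are short. Pln held 62.5% and 86.4% of the TPM of Pln, Sln, Mrln, Erln and Arln. The cardiac form of each family thus led in both libraries.

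Other genes of calcium handling were followed in 9 lists with 96 genes. Of these, 60 were read in both libraries and 12 were at 0 in both, and 28 of the 65 averaging at least 5 TPM lay over 2-fold apart, or 43.1%, of which 12 were higher in replicate 1 and 16 in replicate 2. Their median log2 difference was -0.04, against -0.01 for all genes tested. These lists describe the setting of the 10 genes, and their share over 2-fold apart is set beside the 54.6% of all genes.

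Of 10 other pump regulators, 7 were read in both libraries. S100a1, a calcium sensor that binds both the pump and the release channel, had 828 and 747 TPM, Hspb6, the small heat shock protein that restrains the phosphatase of phospholamban, had 440 and 193 TPM, and sorcin, Sri, had 173 and 128 TPM. Hax1, a partner of phospholamban, had 2.16 TPM in replicate 1 and 36.7 in replicate 2. Of the 7 regulators averaging at least 5 TPM, 4 lay over 2-fold apart, 2 in each direction, where 54.6% of all genes tested did.

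Of 15 genes for the kinases and phosphatases that set the phosphorylation of phospholamban, 13 were read in both libraries. Of the 12 averaging at least 5 TPM, 5 were over 2-fold higher in replicate 2 and none in replicate 1. Over all genes averaging at least 5 TPM, 27.7% were so in replicate 2 and 26.9% in replicate 1. These 12 listed genes had a median log2 difference of -0.74, against -0.01 for all genes tested. The filter on the mean left out Prkar2a (7.21 and 1.17 TPM), which averaged 4.19 TPM and was over 2-fold higher in replicate 1. It kept Ppp2ca (1.30 and 11.3 TPM), which averaged 6.31 TPM. The one-sided count thus depends in part on the filter. Whether the list differs from all genes was not tested. Prkaca, the catalytic subunit of protein kinase A, had 25.8 and 63.9 TPM, and Camk2d, the main cardiac CaMKII, had 35.8 and 103 TPM. Highest were the phosphatase subunit Ppp1ca (447 and 761 TPM), the regulatory subunit Prkar1a (467 and 408 TPM) and Ppp1cc (96.7 and 159 TPM).

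Of 13 regulators of the release channel, 9 were read in both libraries. S100a1 led, followed by Fkbp1a (538 and 538 TPM), whose product FKBP12 binds the channel. Fkbp1b, whose product FKBP12.6 is the other channel-bound immunophilin, had no count in either library. Of the 11 regulators averaging at least 5 TPM, 5 lay over 2-fold apart, 3 higher in replicate 1 and 2 higher in replicate 2. Tmem38a, the counter-ion channel TRIC-A of the store, had 203 and 128 TPM, and Tmem38b (TRIC-B) had 20.3 TPM in replicate 1 and 0 in replicate 2.

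Of 13 genes of the junction and the T-tubule, 8 were read in both libraries, led by Tcap (353 and 327 TPM), Cav3 (170 and 175 TPM) and Cacna1c, the pore of the L-type calcium channel (35.4 and 53.7 TPM). Of the 8 averaging at least 5 TPM, 1 lay over 2-fold apart, where 54.6% of all genes tested did. It was Bin1, which shapes T-tubules, with 0 TPM in replicate 1 and 14.7 in replicate 2. Bin1 passed the filter on the mean only through replicate 2, which fixed its call in advance. Stac3, a skeletal muscle coupling gene, had no count in either library. Tcap and Cav3 were close to level between the libraries, while Cacna1c was higher in replicate 2.

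Of 15 genes of luminal calcium binding and folding, 14 were read in both libraries. Sarcalumenin, Srl, a calcium binding protein of the store, led with 403 TPM in replicate 1 and 179 in replicate 2, followed by the chaperone Hspa5 (341 and 225 TPM) and calumenin, Calu (256 and 247 TPM). Calr, calreticulin, had 11.0 and 138 TPM. Of the 14 averaging at least 5 TPM, 4 were over 2-fold higher in replicate 1 and 1, Calr, in replicate 2, with a median log2 difference of 0.55. The shares over all genes tested were 26.9% and 27.7%, with a median of -0.01. In TPM, Casq2 was above each of the 15 in both libraries.

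The other release channels and calcium pumps each lay below Ryr2 and Atp2a2 in TPM in both libraries. Of 5 other release channels, 1 was read in both libraries, Itpr2, an inositol trisphosphate receptor, at 7.38 and 19.7 TPM, while Itpr3 had 0 and 10.2 TPM and Itpr1 had 0.66 and 0.31 TPM. Itpr2 and Itpr3, the 2 averaging at least 5 TPM, were both over 2-fold higher in replicate 2, as were 27.7% of all genes tested. Itpr3 passed that filter only through replicate 2, which fixed its call in advance. Of 6 other calcium pumps, 2 were read in both libraries, Atp2a3 and the plasma membrane pump Atp2b1 (7.05 and 4.54 TPM). Atp2c1, a pump of the Golgi, had 0 and 21.2 TPM. It was the 1 of 3 pumps averaging at least 5 TPM that lay over 2-fold apart, against 54.6% of all genes tested. Atp2c1 too passed the filter only through replicate 2, which fixed its call in advance.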

How the data were processed

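RNA of 2 newborn mouse hearts was sequenced, with 1 gene table and 1 transcript table per library. The authors deposited expected counts and TPM over all features, with posterior means and intervals, per the file headers, and the share of each transcript in percent of its gene. Notes deposited with the tables name mm10, GENCODE M4 and transcriptome alignments. The aligner and quantifier were not given in the sources used here. TPM was rescaled over mouse genes, leaving out spike-ins. Gene names and positions came from GENCODE M21, which matched 42462 of 43346 genes, and 3 listed symbols matched through RefSeq synonyms. A gene was called read at 1 TPM, and differences between libraries took a pseudocount of 1. Without molecular identifiers, the limit for a count of 0 covers counting error alone.

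No test was made, since there is 1 group. The members, the lists, the ratios and the rule for a ratio (1 sign in both libraries and a mean over 2 SD) were chosen with earlier results of these data known. The named genes are all members, the 3 highest and those at 0 in each list, others of the lists as examples (a few list genes are not reported here), and transcripts with a mean share of 10% or more. Several minor transcripts were named after their values were seen. Alternatives were expected counts, posterior means, pseudocounts, scaling by TMM (edgeR 4.0.16) or size factors (DESeq2 1.42.0) on rounded expected counts, other thresholds and leaving out each library. The alternatives for Jph2 over Ryr2 and for the levels were chosen after seeing the data. The code for the 2-fold count was tested on simulated data, from which no value is given. Python 3.11.15, pandas 2.3.3, numpy 2.4.6 and R 4.3.3 were used.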

Additional observations from a re-analysis of the deposited data

How the results depend on the processing

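With expected counts, where no length is divided out, the mean log2 ratio was 1.30 for Pln over Atp2a2, 4.46 for Pln over Sln, 0.21 for Casq2 over Atp2a2, -4.48 for Hrc over Atp2a2, -1.41 for Ryr2 over Atp2a2, 1.62 for Casq2 over Ryr2 and -3.96 for Jph2 over Ryr2, and 3 means changed sign, to -3.17 for Sln over Atp2a2, -1.25 for Trdn over Ryr2 and -0.87 for Asph over Ryr2. With a pseudocount of 1 or 0.1, Ryr2 over Atp2a2 was -3.36 or -3.40, beyond an SD of only 0.0016. With posterior means, all 12 ratios stayed within 1 SD of their values. Leaving out each library gave the single values in the text, which lie within 1 SD of a mean of 2 by construction and so say nothing of stability, and Sln over Atp2a2 then changed sign, from -1.06 to 1.41. The same 3 genes, Sln, Casq1 and Hrc, lay over 2-fold apart under counts per 1000000, posterior means, a pseudocount of 0.1, TMM and size factors, of which the last pair shifted all genes by 0.07 and 0.11 on the log2 scale. The share of genes over 2-fold apart was 46.9% among all mouse genes read in either library, a set without the filter on the mean. Of the listed genes, 64 were read in both libraries at 0.1 TPM and 51 at 5 TPM. With 2 libraries, neither the spread between hearts nor that of the amplification can be set apart. No paired analysis was possible because the libraries form 1 group.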

Other observations

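Beyond the store itself, 13 genes of store-operated entry, store leak and the contact with mitochondria and 8 genes of other membrane calcium transport were followed. Of the 13, 7 were read in both libraries. The mitochondrial channels Vdac2 (398 TPM in replicate 1 and 604 in replicate 2) and Vdac1 (565 and 435 TPM) and the mitofusin Mfn2 (148 and 129 TPM), which tethers mitochondria to the store in muscle, were highest. Of the 8 averaging at least 5 TPM, 3 were over 2-fold higher in replicate 1, among them the leak channel Tmco1 (87.4 and 1.86 TPM), and none was so in replicate 2. The store sensors Stim1 (5.03 and 0 TPM) and Stim2 (0.06 and 8.43 TPM) lay on opposite sides, and Orai3 had no count in either library. Among all genes averaging at least 5 TPM, 26.9% were over 2-fold higher in replicate 1 and 27.7% in replicate 2.

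Of the 8 membrane transport genes, Slc8a1, the sodium-calcium exchanger that removes calcium from the heart muscle cell, was the only one at or above 1 TPM in both libraries, with 70.8 TPM in replicate 1 and 147 in replicate 2. The T-type channel gene Cacna1h had 0.10 and 10.7 TPM and the L-type gene Cacna1d had 4.94 and 0.94 TPM. Slc8a2, Slc8a3, Slc8b1 and Cacna1g had no count in either library. In TPM Slc8a1 stood below Atp2a2 and above Ryr2 in both libraries.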
